A study of Homo sapiens with 18 samples.

Results

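Chromosome 19 carries the densest collection of zinc finger genes in the human genome, and these genes were followed here through the overexpression of 4 T-box factors. The members are the protein-coding genes on chromosome 19 whose symbol is ZNF followed by a number. Of 247 such genes in the count table, 229 exceeded 5 counts in 10 or more of the 18 libraries and were kept, out of 15576 genes tested in all. The other 18 fell below that filter, and 1 of them had 0 counts in every library.

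The cells were NCI-H1299, an established human lung adenocarcinoma line, at passage 12 to 14, transfected transiently by lipofection. In 4 groups, 3 libraries each received an expression plasmid for Flag-tagged human TBX2, HA-tagged human TBX3, Flag-tagged human TBX4 or HA-tagged mouse Tbx5. The 6 controls were 3 libraries given the empty vector (EV) and 3 labelled Ctl, a group whose treatment the labels do not name. TBX2 and TBX4 were carried by a pORF plasmid and TBX3 and Tbx5 by pCGN, so the backbone and the tag differ along with the factor. RNA of a whole transfected culture was sequenced, so a level averages over cells that took up the plasmid and cells that did not.

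Most ZNF genes of chromosome 19 encode a KRAB domain followed by a row of C2H2 zinc fingers. The fingers read a DNA sequence, often inside a transposable element, and the KRAB domain recruits TRIM28 (KAP1), which brings the histone methyltransferase SETDB1 and heterochromatin proteins to silence the bound site. The family grew by repeated tandem duplication, so that related genes lie side by side in clusters. TBX2, TBX3, TBX4 and TBX5 form the TBX2 subfamily of T-box transcription factors, of which TBX2 and TBX3 are best known as repressors and TBX5 as an activator in the heart.

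Libraries held 7365221 to 11743179 counts, and the single most counted gene of a library took 15.3% to 53.5% of them. Levels are given as CPM, which divides counts by the TMM-scaled library size, and differences as log2 fold changes with their standard error (SE). A floor of 3 counts equalled 0.255 to 0.407 CPM when divided by the unscaled library totals. This floor is therefore not on the TMM scale of the levels given here. The TMM factors of the libraries ran from 0.672 (TBX5 replicate c) to 1.34 (EV replicate c). Each plasmid showed in its own group. TBX2 had 27704 to 47916 counts in its own libraries and 31 to 56 in the controls, TBX3 had 135416 to 320890 against 12 to 34, TBX4 had 85197 to 109159 against 0 to 1, and TBX5 had 1161 to 1302 counts of the human gene with the mouse plasmid against 0. The library labelled 4c-TBX5, which carries the number of the TBX4 group, had 85197 counts of TBX4 and 1 of TBX5 and was used as TBX4 replicate c. Of the epithelial markers, KRT8 and KRT18 were at 19.3 to 52.5 and 43.0 to 75.6 CPM, while EPCAM and CDH1 did not pass 0.486 CPM in any library. NKX2-1 and SFTPC, lung lineage markers, stayed at or below 0.523 CPM, VIM was at 689 to 967 CPM, and PTPRC, a leukocyte marker, did not pass 0.354 CPM.

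The members were not spread evenly. A new group was begun wherever more than 1 Mb separated neighbouring members, which gave 9 clusters with at least 5 members and left 9 scattered genes. Along GRCh37 the clusters, numbered from the short arm, were C1 at chr19:2819866-2944969 with 5 members, C2 at chr19:7069714-9903856 with 14, C3 at chr19:11594242-12750912 with 24, C4 at chr19:19779605-24312770 with 32 and C5 at chr19:35168544-35455133 with 5. Like C5 on the long arm, the others were C6 at chr19:36673178-38307940 with 26, C7 at chr19:44029649-45579736 with 22, C8 at chr19:52074536-54083523 with 37 and C9 at chr19:55987984-58992597 with 55. A gap of 0.5 Mb would give 10 such clusters and a gap of 2 Mb 6. C4 held no other tested protein-coding gene between its members, whereas C2, C7 and C9 had 26, 18 and 19.

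Expression was low. In RPKM, the reads scaled by exon length and by library size, the members ran from 0.117 to 31.6 with a median of 1.93, beside a median of 2.36 over the tested genes with an annotation. By median RPKM, C6 was highest with 3.16, followed by C7 with 2.53, C2 with 2.13, C4 with 2.12 and C5 with 1.79, and C1 was lowest with 0.776. The most abundant member was ZNF146 in C6 (31.6 RPKM), a protein made almost wholly of zinc fingers. ZNF45 (16.9) led C7, ZNF724 (8.02) C4, ZNF317 (7.90) C2, ZNF460 (7.51) C9, ZNF302 (7.30) C5, ZNF700 (4.36) C3, ZNF480 (4.32) C8 and ZNF57 (3.86) C1. GC content of the members' exons had a median of 43.1%, against 46.8% over all annotated genes tested. For 55 of the 229 members, more than 10% of the exon length overlapped another gene, where reads could not be assigned.

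Against the 6 controls, many more members were up-regulated than down-regulated with every TBX. By edgeR's quasi-likelihood test at an adjusted p under 0.1, TBX2 up-regulated 86 of the 229 members (37.6%), where 17.0 percent of all tested genes were up-regulated, and down-regulated 10, where the background was 15.6 percent. TBX3 up-regulated 87 members (38.0%) over a background of 8.47 percent, and down-regulated 3 over 6.4 percent. With TBX4 the numbers were 67 up (29.3%, background 6.97 percent) and 3 down (6.07 percent), and with TBX5 they were 61 up (26.6%, background 6.55 percent) and 3 down (6.12 percent). The 4 comparisons share their 6 control libraries.

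Changes were small for most members. The median log2 fold change of the members was 0.19, 0.24, 0.17 and 0.20 in the order TBX2, TBX3, TBX4, TBX5, while that of all tested genes was 0.00, 0.00, -0.01 and 0.00. A log2 fold change over 1 was reached by 8, 5, 3 and 0 of the up-regulated members in the same order. Counted over all members whatever their p, 167, 192, 174 and 189 of 229 lay above the control level, and 127 lay above it with all 4 TBXs. Among genes that are no members but have a GC content between the lower and upper quartile of the members, 19.02%, 9.28%, 7.24% and 7.27% were up-regulated.

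The shift was seen library by library. Taking each member relative to its mean over the 6 controls, the median over members was -0.05 to 0.06 on the log2 scale in the controls, 0.16 to 0.24 in the TBX2 libraries, 0.19 to 0.27 with TBX3, 0.14 to 0.19 with TBX4 and 0.18 to 0.22 with TBX5. Every TBX library thus lay above every control library on this measure. The 3 TBX libraries all exceeded the 6 controls for 66, 77, 59 and 62 members with TBX2, TBX3, TBX4 and TBX5 (28.8%, 33.6%, 25.8% and 27.1%), compared with 12.9, 8.38, 6.84 and 7.48 percent of all tested genes. They all lay below the controls for 8, 3, 2 and 3 members, where 11.6, 6.14, 5.74 and 6.55 percent of all genes did. Leaving out single libraries moved 2 of these call counts by more than 1.5 times, as 57 members were up-regulated by TBX3 without TBX3 replicate c and 43 by TBX4 without TBX4 replicate a. Few members fell, and the counts of those were less stable. With TBX2, 6 fell without TBX2 replicate c. With TBX4, 5 fell without Ctl replicate c, 1 without TBX4 replicate b and 0 without the library labelled 4c-TBX5. With TBX5, 1 fell without any one EV library and 0 without TBX5 replicate b or c.

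Scaling mattered for the absolute direction. With library totals in place of TMM, the median of all tested genes itself moved by 0.25 with TBX4 and by -0.31 with TBX5, and the members' median became 0.43 and -0.11. The members up-regulated by TBX2, TBX3, TBX4 and TBX5 then numbered 33, 5, 119 and 0. Relative to all genes, the members' median stayed at 0.19, 0.24, 0.18 and 0.20 with TBX2, TBX3, TBX4 and TBX5 under this scaling.

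**Figure D1:**
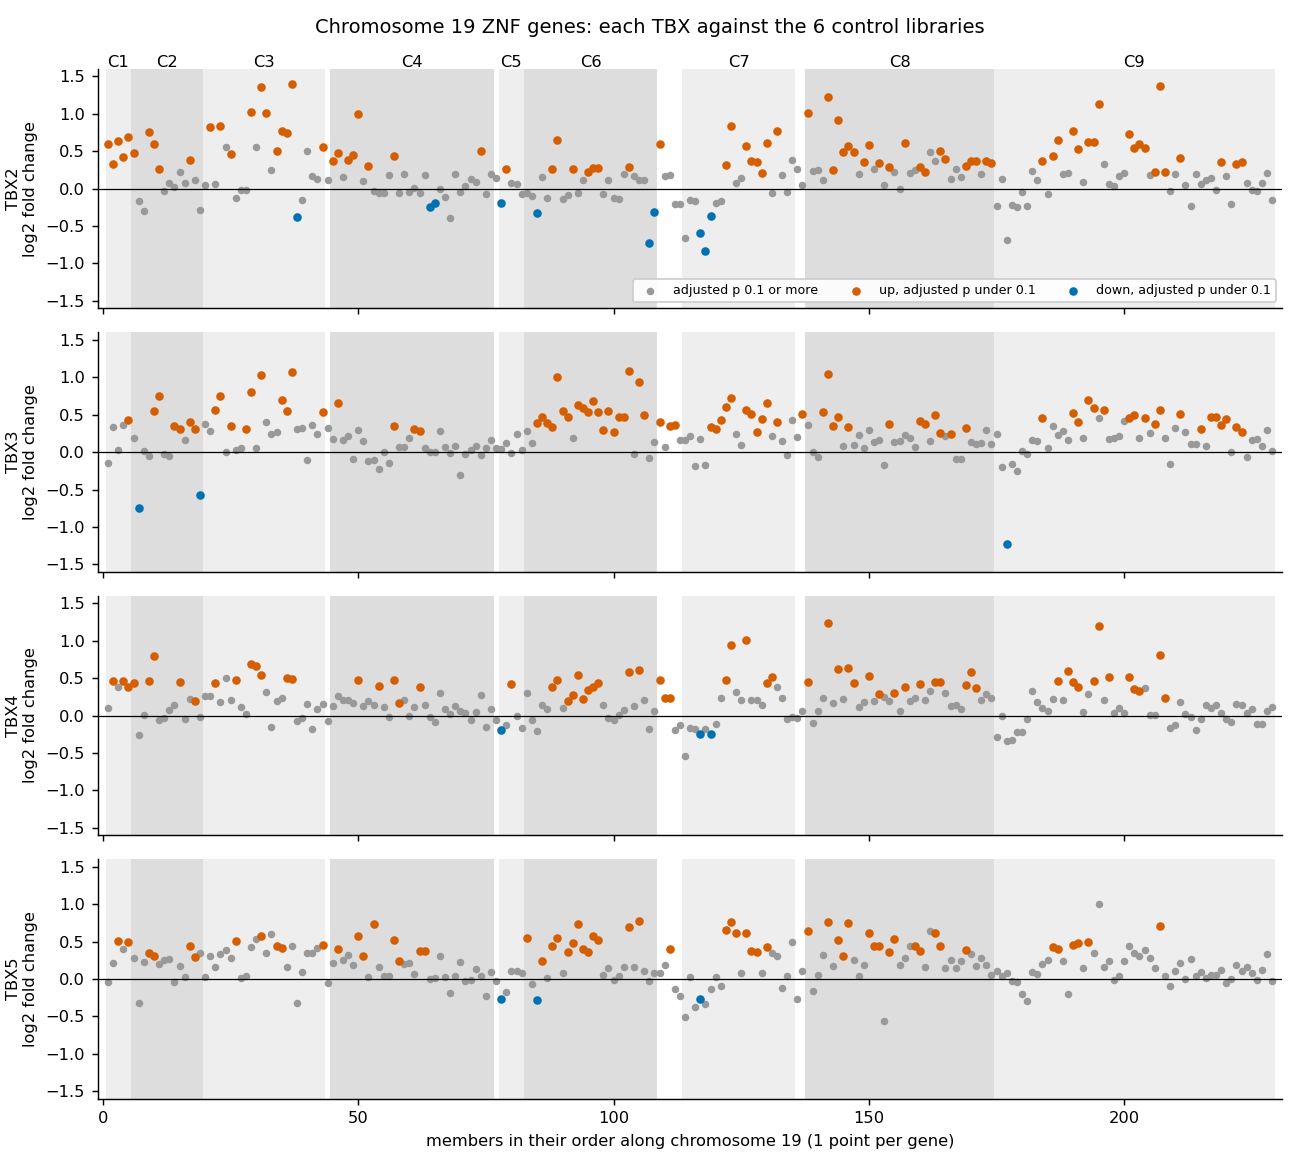
Log2 fold change of each of the 229 members against the 6 control libraries (vertical axis, TMM scaling), in their order along chromosome 19 (horizontal axis), 1 panel per TBX. Grey bands mark clusters C1 to C9; orange and blue points passed an adjusted p of 0.1 upward (86, 87, 67 and 61 members) and downward (10, 3, 3 and 3).

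Zinc finger genes elsewhere and other genes of the same chromosome were set beside the members. The 227 tested ZNF genes of other chromosomes had 83 up and 13 down with TBX2 (median 0.14), 53 and 3 with TBX3 (0.14), 29 and 6 with TBX4 (0.06) and 29 and 4 with TBX5 (0.09). As shares, 36.6% of them were up-regulated by TBX2, close to the 37.6% of members, against 23.4%, 12.8% and 12.8% by TBX3, TBX4 and TBX5. The 687 tested protein-coding genes of chromosome 19 outside the ZNF family had more falling than rising members under TMM scaling, with 68, 36, 24 and 22 up and 228, 77, 93 and 100 down, and medians of -0.15, -0.06, -0.08 and -0.09. Inside the cluster spans, the 72 genes without a ZNF symbol, of which 10 are zinc finger genes of other names, had 9, 4, 5 and 2 up and 15, 6, 8 and 6 down, with medians of -0.06, -0.06, -0.03 and -0.07. These differences between lists were not tested.

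**Figure D2:**
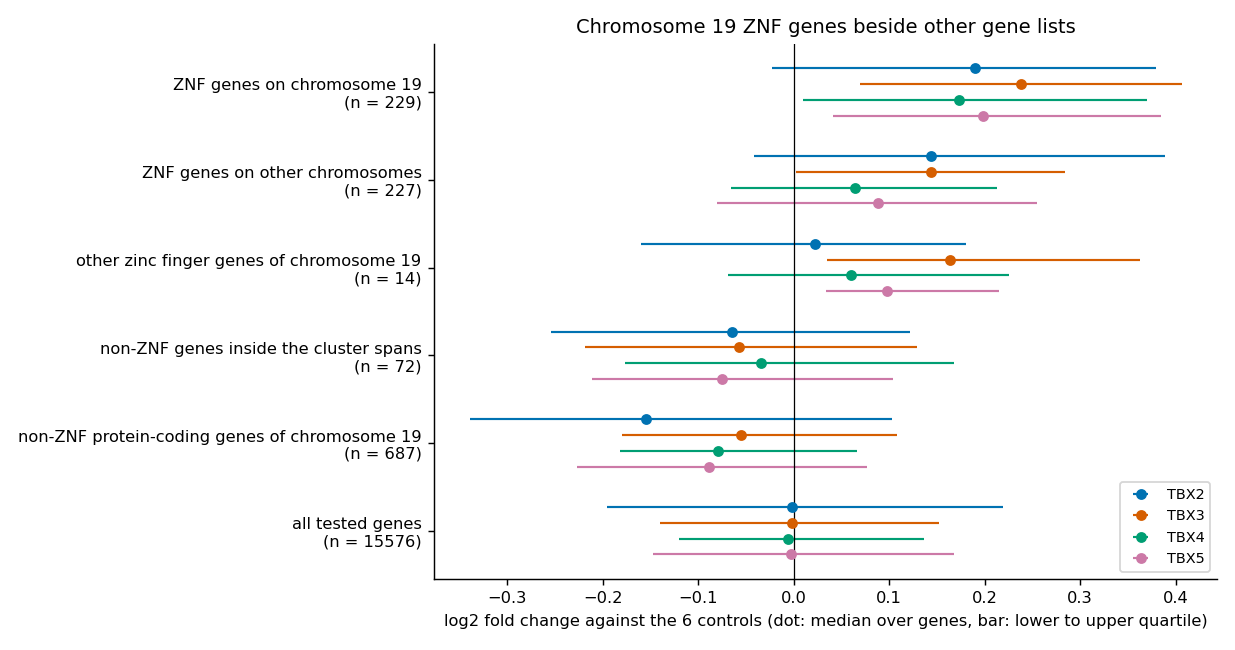
Median log2 fold change (dots) with the lower and upper quartile over genes (bars) for 6 gene lists, in 4 TBX contrasts against the 6 controls, under TMM scaling. The medians of the chromosome 19 ZNF genes lie at 0.17 to 0.24 and those of the other protein-coding genes of the chromosome at -0.15 to -0.06; by library totals the TBX5 median of the ZNF genes is -0.11 and that of all genes -0.31.

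Clusters differed in how many members responded and to which factor. Over all tested genes, 17.0, 8.47, 6.97 and 6.55 percent were up-regulated by TBX2, TBX3, TBX4 and TBX5, and 15.6, 6.4, 6.07 and 6.12 percent were down-regulated. C8 had the most members up-regulated by TBX2, 21 of 37, with 12, 15 and 15 by TBX3, TBX4 and TBX5, and none of its 37 members fell in any contrast by edgeR at an adjusted p under 0.1. In C3, 11 of 24 members rose with TBX2 at a cluster median of 0.51, and 10, 7 and 5 with TBX3, TBX4 and TBX5, where the medians were 0.33, 0.22 and 0.35. In C9, the largest cluster, 19 of 55 members were up-regulated by TBX2 and by TBX3, 12 by TBX4 and 6 by TBX5. All 5 members of C1 rose with TBX2, against 1, 3 and 2 with the others.

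C4, on the centromere side of the short arm, had 8, 4, 5 and 8 of 32 members up-regulated by TBX2, TBX3, TBX4 and TBX5 (25%, 12.5%, 15.6% and 25%, where all tested genes had 17.0, 8.47, 6.97 and 6.55 percent), with medians of 0.09, 0.06, 0.13 and 0.17, and 2 fell with TBX2. C7 had 8, 11, 5 and 7 of 22 up-regulated (36.4%, 50%, 22.7% and 31.8%) and 3, 0, 2 and 1 down-regulated. Those falls were 13.6%, 0%, 9.09% and 4.55% of C7, where all tested genes had 15.6, 6.4, 6.07 and 6.12 percent. C2 had 5, 6, 5 and 4 of 14 up (35.7%, 42.9%, 35.7% and 28.6%) and 0, 2, 0 and 0 down (14.3% with TBX3). C5 had 1, 0, 1 and 0 of 5 up and 1, 0, 1 and 1 down, the falling gene being ZNF302 each time.

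Single libraries decided several of these counts of up-regulated members. Without TBX3 replicate c the TBX3 counts were 0 in C1, 1 in C4, 7 in C7, 7 in C8 and 11 in C9, and without TBX3 replicate b they were 2 in C4 and 7 in C8. Without TBX4 replicate a the TBX4 counts were 4 in C3, 0 in C5 and 5 in C9, without TBX4 replicate b 1 in C1, and without the library labelled 4c-TBX5 2 in C4 and 7 in C9. Without TBX5 replicate c the TBX5 counts were 1 in C1, 3 in C4, 4 in C7, 9 in C8 and 3 in C9, without TBX5 replicate b 0 in C1 and 3 in C3, and without TBX5 replicate a 1 in C1 and 2 in C9. With TBX2 they were 3 in C1, 0 in C5 and 5 in C7 without TBX2 replicate b, and 2 in C1 without TBX2 replicate c. The choice of controls mattered too. In C1 the TBX3 count was 2 without any one EV library and the TBX5 count 1 without Ctl replicate a, Ctl replicate c or EV replicate b. Against EV alone the C1 counts for TBX2, TBX3, TBX4 and TBX5 were 3, 0, 0 and 0, so that no TBX3, TBX4 or TBX5 call of C1 was left. Against EV alone, C2 had 2 with TBX5, C3 had 4 with TBX4, C4 had 5 with TBX5, C5 had 0 with TBX2 and TBX4, C7 had 7 with TBX3 and 4 with TBX5, and C9 had 4 with TBX4 and 3 with TBX5. Against Ctl alone, C1 had 2 with TBX3, and C4 had 2 with TBX3, 2 with TBX4 and 3 with TBX5.

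**Figure D3:**
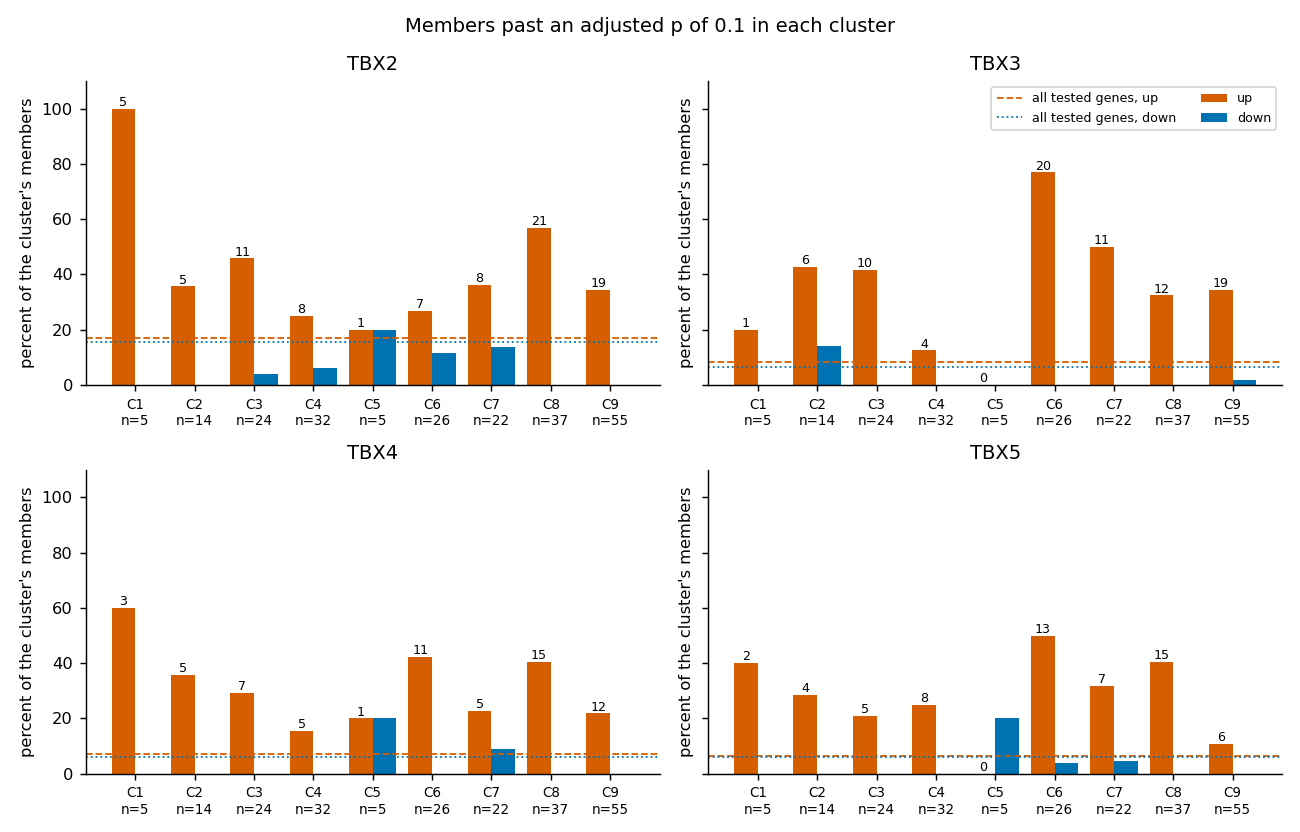
Percent of the members of each cluster up-regulated (orange bars, with their number) and down-regulated (blue bars) at an adjusted p under 0.1, 1 panel per TBX; dashed and dotted lines give the same percent over all tested genes. With TBX3, C6 stands at 20 of 26 members, and C8 has the most up-regulated members with TBX2 (21 of 37).

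A total of 23 members, 10.04% of the 229, were up-regulated by all 4 TBXs, beside 1.21 percent of all tested genes. They came from 8 of the 9 clusters, with 6 each in C6 and C8, 4 in C7, 3 in C9 and 1 each in C1, C2, C3 and C4. By edgeR, 0 members were down-regulated by all 4, beside 1.24 percent of all tested genes. The count was also 0 at an unadjusted p under 0.05 and by DESeq2. DESeq2 called 14 members up in all 4 contrasts, and all 14 were among the 23. In all, 138 members (60.3%) were up-regulated by at least 1 TBX, beside 24.4 percent of all genes. Down-regulated by at least 1 were 13 of the 229, beside 20.7 percent of all genes. There were 2 members in both sets, and 80 passed the test in neither direction.

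ZNF615, at chr19:52494585-52511483 on the minus strand in C8, had the largest mean change of the 23. Its levels were 4.902, 4.44 and 4.17 in Ctl, 3.88, 4.401 and 4.66 in EV, 8.61, 10.6 and 12.5 in TBX2, 9.57, 10.4 and 8.08 in TBX3, 10.7, 10.1 and 10.6 in TBX4 and 6.32, 10.3 and 6.699 in TBX5 CPM. All 12 TBX libraries were above all 6 controls. The log2 fold change was 1.23 ± 0.14 (SE, adjusted p = 4.28e-07) with TBX2, 1.04 ± 0.13 (SE, adjusted p = 8.28e-06) with TBX3, 1.23 ± 0.11 (SE, adjusted p = 3.2e-08) with TBX4 and 0.76 ± 0.17 (SE, adjusted p = 0.00525) with TBX5, and the 4 groups did not differ from each other at the threshold (adjusted p = 0.111).

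ZNF844, at chr19:12175546-12192380 on the plus strand in C3, is a KRAB zinc finger gene. It stood at 18.04, 17.04 and 16.6 in Ctl, 17.7, 18.8 and 19.6 in EV, 40.9, 49.1 and 48.7 in TBX2, 32.8, 38.5 and 38.7 in TBX3, 28.1, 25.6 and 25.3 in TBX4 and 27.4, 24.8 and 27.9 in TBX5 CPM. The groups did not overlap with the controls, and TBX2 and TBX3 lay above TBX4 and TBX5. Against the controls its log2 fold change was 1.36 ± 0.08 (SE, adjusted p = 1.05e-11), 1.03 ± 0.08 (SE, adjusted p = 1.35e-09), 0.54 ± 0.07 (SE, adjusted p = 2.04e-05) and 0.57 ± 0.08 (SE, adjusted p = 0.000133) for TBX2, TBX3, TBX4 and TBX5, and no other member had a smaller p for equality of the 4 TBX groups (adjusted p = 5.26e-08).

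ZNF211, at chr19:58141763-58155409 on the plus strand in C9, was at 5.78, 5.24 and 5.06 in Ctl, 6.17, 7.08 and 7.21 in EV, 16.9, 16.6 and 13.6 in TBX2, 9.57, 9.504 and 8.51 in TBX3, 11.1, 10.4 and 11.1 in TBX4 and 8.99, 10.9 and 10.8 in TBX5 CPM. The TBX2 libraries were highest and the 6 controls lowest. Its log2 fold change reached 1.37 ± 0.12 (SE, adjusted p = 1.92e-08) with TBX2 and 0.56, 0.81 and 0.71 with TBX3, TBX4 and TBX5.

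ZNF317 in C2 had the highest RPKM of the 23, and its levels were 25.6, 30.3 and 29.7 in Ctl, 32.3, 31.7 and 31.3 in EV, 46.6, 44.3 and 45.5 in TBX2, 41.7, 46.8 and 43.7 in TBX3, 53.8, 54.3 and 48.3 in TBX4 and 36.4, 40.3 and 35.5 in TBX5 CPM. Here TBX4 was highest, with a log2 fold change of 0.79 ± 0.07 (SE, adjusted p = 7.71e-09), followed by TBX2 with 0.59, TBX3 with 0.54 and TBX5 with 0.30. With TBX5 the call was lost without TBX5 replicate b, where the value was 0.26.

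The next genes in the order of mean change were ZNF222 and ZNF225 of C7, ZNF461 and ZNF570 of C6, and ZNF432 and ZNF616 of C8. ZNF222 moved by 0.83, 0.73, 0.94 and 0.76 with TBX2 to TBX5, and ZNF225 by 0.57, 0.56, 1.01 and 0.61. ZNF432 and ZNF616, which lie near ZNF615 on the same strand, moved by 0.92, 0.46, 0.63 and 0.52 and by 0.57, 0.34, 0.63 and 0.75. For ZNF616 the TBX3 value lost its call without TBX3 replicate b or c (0.32 and 0.28) and without each EV library in turn (0.27 to 0.33). The remaining 13 were ZNF264, ZNF235, ZNF230, ZNF77, ZNF420, ZNF805, ZNF430, ZNF585A, ZNF160, ZNF468, ZNF568, ZNF382 and ZNF845, whose mean log2 fold change over the 4 contrasts ran from 0.55 down to 0.36.

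**Figure D4:**
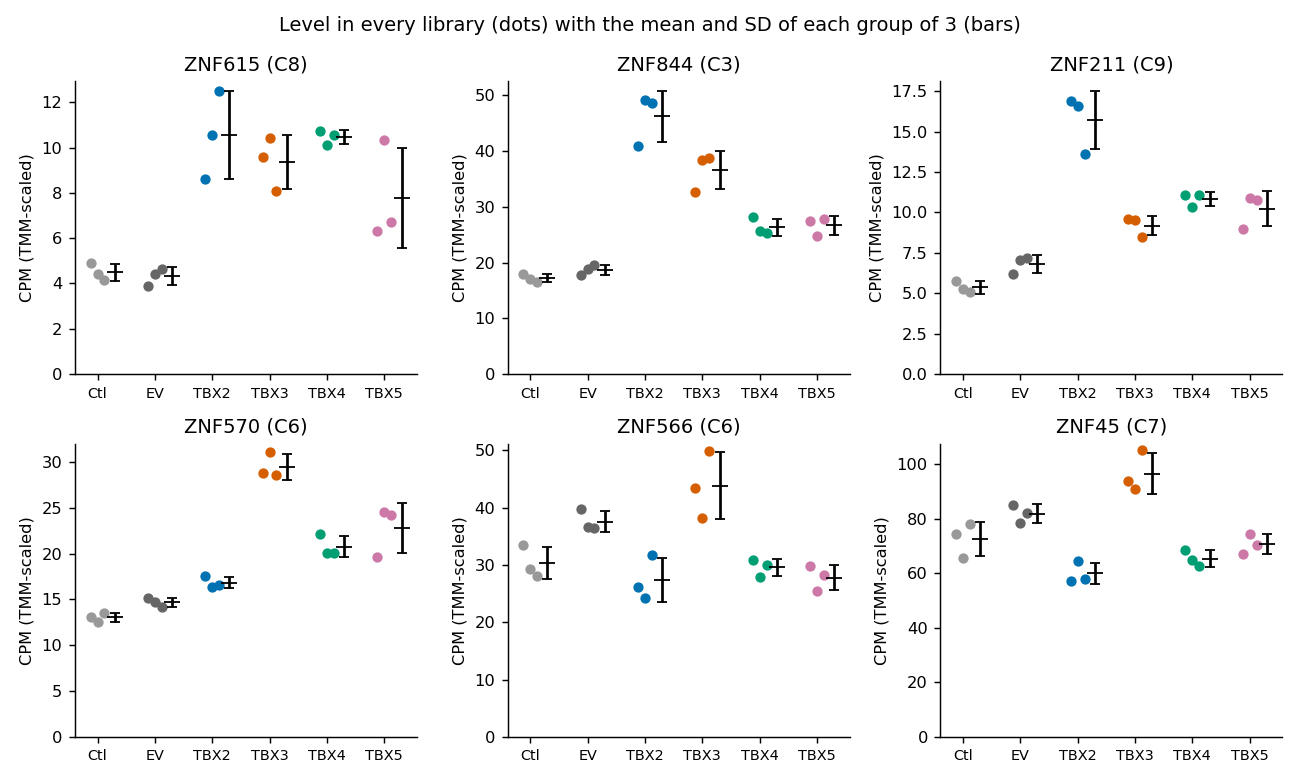
Level of 6 members in each of the 18 libraries (dots, CPM after TMM scaling, axis from 0), with the mean and SD of each group of 3 (bars). ZNF615, ZNF844 and ZNF211 lie above all controls in every TBX library, ZNF570 is highest with TBX3, and among the TBX groups ZNF566 and ZNF45 are above the control mean only with TBX3.

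Promoters of the leading pair are shown because these genes rose with all 4 factors. Sequences came from RefSeq on GRCh38.p14, where 204 of the 229 members had an entry, 170 of them with a single start. The 250 bases before the start are printed 5′ to 3′ on the gene's strand, in lower case, with matches to the searched motifs in capitals.
ZNF615, chr19:52008212-52008461, minus strand: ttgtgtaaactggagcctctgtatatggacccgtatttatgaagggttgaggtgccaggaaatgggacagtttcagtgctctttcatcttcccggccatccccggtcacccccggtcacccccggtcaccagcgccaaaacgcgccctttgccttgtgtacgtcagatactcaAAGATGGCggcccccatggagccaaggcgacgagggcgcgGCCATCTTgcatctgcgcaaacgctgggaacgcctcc
ZNF844, chr19:12064481-12064730, plus strand: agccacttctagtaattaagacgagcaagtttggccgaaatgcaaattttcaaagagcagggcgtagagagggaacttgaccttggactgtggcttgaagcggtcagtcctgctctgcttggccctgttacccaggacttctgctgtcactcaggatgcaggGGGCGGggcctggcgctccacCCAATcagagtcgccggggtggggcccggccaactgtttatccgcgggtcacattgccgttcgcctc
In ZNF615 the capitals mark AANATGGC, a core bound by YY1, and its reverse complement, and in ZNF844 they mark GGGCGG, the GC box bound by SP1, and CCAAT, bound by NF-Y. Neither window held the T-box core GGTGTGA in either orientation.

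A set of 10 motifs was searched on both strands of the window from 250 bases before to 50 bases after the start, taking the start listed first where a gene had several. The list was settled after shares had been seen. GGTGTGA was in 8 of 204 members' windows (3.92%), compared with 3.43% of all 27326 promoters and 2.93% of 9861 other tested protein-coding genes. It was in 0 of 25 windows of C6 and in 1 of 22 of the genes up-regulated by all 4 TBXs. The windows with this motif are shown because it is a sequence that T-box factors recognise; capitals mark GGTGTGA or its reverse complement TCACACC.
ZNF44, chr19:12294840-12294866, minus strand: cagagaggagGGTGTGAcgttccagga
ZNF101, chr19:19668642-19668668, plus strand: cacctgtcagTCACACCccacacagcg
ZNF85, chr19:20923018-20923044, plus strand: aatactctctGGTGTGAgcctggctca
ZNF254, chr19:24087039-24087065, plus strand: ttcagcctagGGTGTGAtcacatcttc
ZNF296, chr19:45076633-45076659, minus strand: gtgggaactcGGTGTGAttaaatttgg
ZNF83, chr19:52690447-52690465, minus strand: ggagtgacggTCACACCgc
ZNF320, chr19:52897645-52897671, minus strand: ggactgaaggTCACACCacagcgcgtg
ZNF160, chr19:53103375-53103401, minus strand: ggagcaagcaTCACACCatggcgtatg
Of these 8 genes, ZNF160 was up-regulated in all 4 contrasts, ZNF44 in 3, ZNF320 in 2 and ZNF101 in 1, and ZNF85, ZNF254, ZNF296 and ZNF83 in 0. Of all members, 60.3% were up-regulated in at least 1 contrast and 10.04% in all 4, beside 24.4 and 1.21 percent of all tested genes. Whether the motif has a part in the response was not tested.

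Shares of other motifs varied between clusters. CGGAAG, the core bound by ETS factors, was in 58.8% of the members' windows and in 33.0% of those of other tested protein-coding genes. By cluster it was in 36.0% in C6 and 33.3% in C3, but in 71.4% in C4, 73.7% in C7 and 70.0% in C9. CCAAT was in 53.9% of members' windows and 36.6% of the others. It was in all 28 windows of C4, in 22 of 24 in C3 and in all 5 in C1, but in 6 of 25 in C6, 4 of 19 in C7 and 8 of 30 in C8. Windows of the 4 members of C4 with the highest RPKM are shown to compare the letters around the box, with CCAAT in capitals.
ZNF724, chr19:23250459-23250487, minus strand: cttagacgttttCCAATcagggaccctga
ZNF43, chr19:21836253-21836281, minus strand: cttagaagttatCCAATcagggacgctgg
ZNF714, chr19:21082104-21082132, plus strand: tttaaaagttatCCAATcagcgacgctgg
ZNF100, chr19:21767614-21767642, minus strand: gctggaaaccgtCCAATcaggcatgcagc
The box began 87 bases before the start in ZNF43 and ZNF714, 81 in ZNF724 and 51 in ZNF100, and CCAAT was followed by CAG in all 4. C1, C3 and C4, with the box in 100%, 91.7% and 100% of windows, had cluster medians of 0.59, 0.51 and 0.09 with TBX2. C2, C6, C7 and C8, with 16.7%, 24%, 21.1% and 26.7%, had medians of 0.09, 0.11, 0.11 and 0.31. C5 and C9, with 50% and 62%, had 0.06 and 0.18. Whether the box has a part in the response was not tested.

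Cluster C6, at chr19:36673178-38307940, responded most to TBX3. Of its 26 members, 20 were up-regulated by TBX3 (76.9%, cluster median 0.46), 13 by TBX5 (0.20), 11 by TBX4 (0.17) and 7 by TBX2 (0.11), and 3 fell with TBX2 and 1 with TBX5. The mean was highest with TBX3 among the 6 groups for 20 of the 26 members and with TBX5 for 4. All 3 TBX3 libraries exceeded all 6 controls for 18 members, against 4, 10 and 12 for TBX2, TBX4 and TBX5. The TBX3 count stayed at 18 to 20 with any single library left out, and it was 19 against EV alone, 21 against Ctl alone and 2 with library totals in place of TMM. The TBX2 count was 3 without TBX2 replicate c, 4 without TBX2 replicate a, 3 without Ctl replicate b, 2 against EV alone and 11 against Ctl alone, and the TBX4 count was 7 against EV alone.

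The difference between factors in C6 was tested with contrasts that held no control group. C6 stood out by its TBX3 count in these same libraries, so these contrasts add no independent data. The controls were in the same fit and entered its scaling and its estimate of the spread. Equality of the 4 TBX groups was rejected at an adjusted p under 0.1 for 21 of 26 C6 members, against 74 of all 229 (32.3%) and 22.7 percent of all tested genes. TBX3 was above TBX2 for 22 members and below it for 0, above TBX4 for 14 and above TBX5 for 12, in each case with 0 below. Over all tested genes, TBX3 was above TBX2, TBX4 and TBX5 for 7.51, 5.95 and 4.30 percent. TBX2 was below TBX4 for 6 and below TBX5 for 8 members of C6, beside 5.61 and 5.69 percent of all tested genes. Between TBX4 and TBX5 0 of the 26 differed. Among the 3 TBX3 libraries, the median of C6 members relative to the controls was 0.35 to 0.50, and it was 0.04 to 0.08 in TBX2, 0.14 to 0.22 in TBX4 and 0.23 to 0.33 in TBX5. EV libraries lay at 0.06 to 0.13 and Ctl libraries at -0.12 to -0.03, so the 2 kinds of control did not overlap on this measure.

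**Figure D5:**
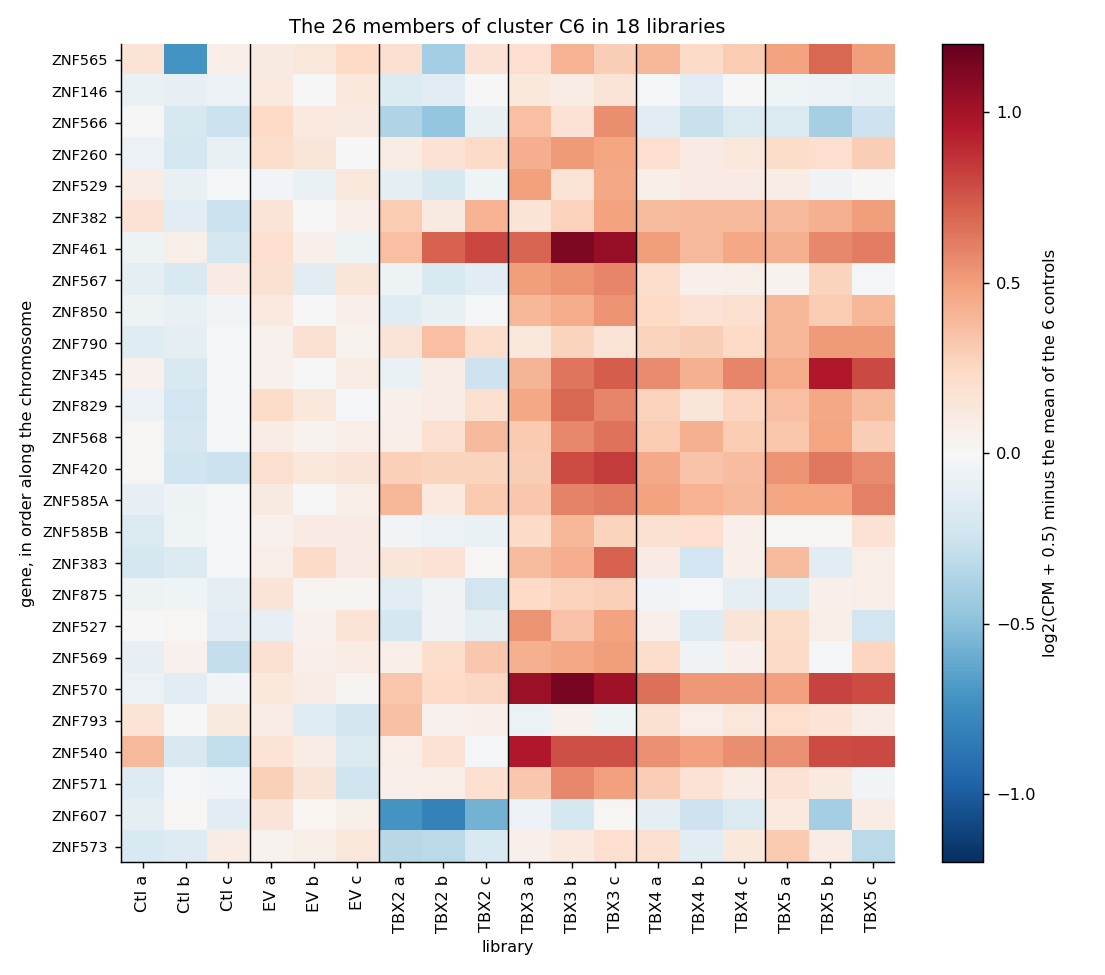
The 26 members of C6 (rows, in order along the chromosome) in 18 libraries (columns, grouped by treatment): log2(CPM + 0.5) minus the mean of the 6 controls, from blue (lower) to red (higher). The 3 TBX3 columns are red for most rows, ZNF607 is lowest in the 3 TBX2 columns, and the EV columns are slightly higher than the Ctl columns.

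ZNF570 led the response to TBX3 in C6. It stood at 13.1, 12.5 and 13.5 in Ctl, 15.2, 14.7 and 14.2 in EV, 17.6, 16.4 and 16.6 in TBX2, 28.8, 31.1 and 28.5 in TBX3, 22.1, 20.1 and 20.1 in TBX4 and 19.6, 24.6 and 24.2 in TBX5 CPM. The TBX3 libraries were highest and did not overlap any other group, TBX5 and TBX4 followed, and TBX2 was just above the controls. The log2 fold change was 1.08 ± 0.08 (SE, adjusted p = 1.2e-09) with TBX3, 0.69 with TBX5, 0.58 with TBX4 and 0.28 ± 0.09 (SE, adjusted p = 0.0256) with TBX2, the last of which lost its call without TBX2 replicate a (0.25) and against EV alone (0.21).

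ZNF461 was also highest with TBX3 on average, but TBX2 came next rather than last. Its levels were 9.61, 10.6 and 8.63 in Ctl, 11.7, 10.5 and 9.64 in EV, 13.1, 16.7 and 17.9 in TBX2, 16.6, 22.5 and 21.2 in TBX3, 14.5, 13.3 and 14.1 in TBX4 and 13.6, 15.3 and 15.6 in TBX5 CPM. Its change was 1.01 ± 0.10 (SE, adjusted p = 5.86e-07) with TBX3, 0.65 with TBX2, 0.54 with TBX5 and 0.47 with TBX4. TBX3 replicate a, at 16.6 CPM, was below the highest TBX2 library.

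ZNF850, one of the more abundant members, had 112, 109.7 and 114 in Ctl, 126, 116 and 122 in EV, 105, 109.9 and 115 in TBX2, 154, 159 and 169.99 in TBX3, 138, 131 and 133 in TBX4 and 153, 144 and 154 in TBX5 CPM. TBX3 and TBX5 were highest, TBX4 was above all controls, and TBX2 overlapped the lower controls. The log2 fold change was 0.47 ± 0.06 (SE, adjusted p = 6.69e-06) with TBX3, 0.36 ± 0.06 (SE, adjusted p = 0.000335) with TBX5, 0.20 with TBX4, a call lost without TBX4 replicate a (0.18), and -0.09 ± 0.06 (SE, adjusted p = 0.329) with TBX2.

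ZNF345 and ZNF540 rose with TBX3, TBX4 and TBX5 and not detectably with TBX2. ZNF345 had a mean level of 8.84 ± 0.777 in Ctl, 9.46 ± 0.321 in EV, 8.67 ± 1.07 in TBX2, 14.1 ± 1.58 in TBX3, 13.4 ± 0.828 in TBX4 and 15.7 ± 2.83 in TBX5 CPM (SD, n = 3). Its log2 fold change was 0.64, 0.54 and 0.74 with TBX3, TBX4 and TBX5, and -0.06 ± 0.12 (SE, adjusted p = 0.764) with TBX2. ZNF540 changed by 0.93, 0.60 and 0.78, and by 0.11 ± 0.21 (SE, adjusted p = 0.753) with TBX2.

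ZNF607 fell with TBX2, as did ZNF566 and ZNF573 of the same cluster. Its levels were 30.5, 33.4 and 30.05 in Ctl, 36.9, 33.7 and 34.8 in EV, 19.98, 18.6 and 22.2 in TBX2, 31.5, 28.5 and 33.5 in TBX3, 30.8, 27.8 and 29.3 in TBX4 and 36.1, 24.8 and 35.4 in TBX5 CPM. The 3 TBX2 libraries were below every other library. The log2 fold change was -0.72 ± 0.09 (SE, adjusted p = 1.29e-06) with TBX2 and -0.08, -0.19 and -0.03 with TBX3, TBX4 and TBX5 (adjusted p = 0.584, 0.102 and 0.886).

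ZNF566 was among the 2 members called in opposite directions, along with ZNF45 of C7. It had 33.5, 29.4 and 28.1 in Ctl, 39.8, 36.6 and 36.4 in EV, 26.2, 24.2 and 31.7 in TBX2, 43.5, 38.2 and 49.8 in TBX3, 30.9, 27.9 and 29.9 in TBX4 and 29.7, 25.4 and 28.3 in TBX5 CPM. TBX3 was highest on average and overlapped EV, and Ctl overlapped TBX2, TBX4 and TBX5. Against the pooled controls it rose by 0.39 ± 0.09 (SE, adjusted p = 0.00755) with TBX3 and fell with TBX2, at -0.33 ± 0.10 (SE, adjusted p = 0.0222), and with TBX5, at -0.28 ± 0.10 (SE, adjusted p = 0.0971). The TBX5 value was -0.42 against EV alone and -0.11 against Ctl alone, and its call was lost without any one of the 3 EV libraries, Ctl replicate a, TBX5 replicate b or TBX5 replicate c (-0.22 to -0.28).

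Between the members of C6 lie 4 tested genes that are no ZNF, and 3 of them, ZFP14, ZFP82 and ZFP30, are zinc finger genes too. ZFP30 was at 70.3 ± 6.68 CPM in the controls (SD, n = 6) and 106 ± 12.6 with TBX3 (SD, n = 3), a log2 fold change of 0.60 ± 0.08 (SE, adjusted p = 8.28e-06). ZFP82 rose with TBX3 by 0.34 ± 0.07 (SE, adjusted p = 0.00382) and fell with TBX2, at -0.46 ± 0.08 (SE, adjusted p = 0.000145). ZFP14 fell with TBX2 (-0.41 ± 0.12 (SE, adjusted p = 0.0188)), and its TBX3 value was 0.27 ± 0.11 (SE, adjusted p = 0.111).

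The 13 of 229 members down-regulated by at least 1 TBX, beside 20.7 percent of all tested genes, lay in 7 of the 9 clusters. Those with the largest falls with TBX2 included ZNF404 and ZNF283 of C7. ZNF404, at chr19:44376517-44405537, had 17.4, 15.6 and 17.4 in Ctl, 22.7, 19.2 and 19.8 in EV, 10.9, 9.46 and 11.2 in TBX2, 14.9, 14.6 and 18.8 in TBX3, 15.1, 15.9 and 18.5 in TBX4 and 17.8, 13.3 and 11.9 in TBX5 CPM. The 3 TBX2 libraries were lowest, and TBX5 replicates b and c came next. It fell with TBX2, at -0.84 ± 0.12 (SE, adjusted p = 1.38e-05), and EV was above Ctl by 0.29 (adjusted p = 0.304).

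ZNF283 stood at 43.6, 36.1 and 42.6 in Ctl, 49.8, 49.6 and 51.95 in EV, 29.97, 28.4 and 32.8 in TBX2, 48.5, 50.2 and 55.4 in TBX3, 40.7, 36.8 and 38.1 in TBX4 and 38.2, 36.7 and 39.3 in TBX5 CPM. The 3 TBX2 libraries were lowest, and Ctl, TBX4 and TBX5 overlapped. Its log2 fold change was -0.60 ± 0.10 (SE, adjusted p = 8.51e-05) with TBX2, -0.25 ± 0.08 (SE, adjusted p = 0.0636) with TBX4, -0.26 ± 0.10 (SE, adjusted p = 0.0928) with TBX5 and 0.18 ± 0.09 (SE, adjusted p = 0.207) with TBX3. Against Ctl alone the TBX4 and TBX5 values were -0.08 and -0.10, and both calls were also lost without any one EV library (-0.20 to -0.24). The TBX4 call was lost without TBX4 replicate b (-0.21) or the library labelled 4c-TBX5 (-0.24), and the TBX5 call without any one TBX5 library (-0.24 to -0.28).

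ZNF45, a KRAB zinc finger gene and the most abundant of C7, had 74.2, 65.5 and 77.9 in Ctl, 84.99, 78.2 and 82.3 in EV, 57.3, 64.5 and 57.95 in TBX2, 93.7, 90.8 and 105 in TBX3, 68.6, 64.9 and 62.6 in TBX4 and 67.02, 74.4 and 70.5 in TBX5 CPM. TBX3 was highest and overlapped no other group, and TBX2 was lowest on average but overlapped TBX4. It rose with TBX3 by 0.33 ± 0.07 (SE, adjusted p = 0.00301) and fell with TBX2, at -0.36 ± 0.08 (SE, adjusted p = 0.00103), and with TBX4, at -0.24 ± 0.07 (SE, adjusted p = 0.0227); the TBX4 value was -0.15 against Ctl alone and -0.21 without the library labelled 4c-TBX5, with the call lost in both and without TBX4 replicate b (-0.23). Equality of the 4 groups gave an adjusted p of 3.9e-07.

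The other falling members were low or changed little. ZNF302 of C5 fell slightly with TBX2 (-0.19 ± 0.07 (SE, adjusted p = 0.0482)), TBX4 (-0.20) and TBX5 (-0.27), calls that were lost without TBX2 replicate a or c, the library labelled 4c-TBX5, or TBX5 replicate b or c (-0.14 to -0.24). ZNF524 of C9, a gene with 4 to 25 counts per library, was at 1.08, 0.976 and 1.79 in Ctl, 1.94, 1.72 and 1.596 in EV, 0.459, 1.21 and 1.14 in TBX2, 0.786, 0.905 and 0.422 in TBX3, 1.12, 1.01 and 1.48 in TBX4 and 1.66, 1.39 and 1.67 in TBX5 CPM. Its TBX3 value was -1.22 ± 0.35 (SE, adjusted p = 0.0244), and without TBX3 replicate c it was -0.83 and not called. ZNF358 of C2 fell with TBX3, at -0.75 ± 0.17 (SE, adjusted p = 0.0062), and 34.1% of its exon length overlapped another gene. Among members with under 10% exon overlap, 0 fell with TBX3, so ZNF524 and ZNF846, the other members falling with TBX3, were over that limit too. ZNF846 of C2 with TBX3 (-0.58 ± 0.21 (SE, adjusted p = 0.0749)) and ZNF799 of C3 with TBX2 (-0.38 ± 0.16 (SE, adjusted p = 0.0764)) lost their calls without several single libraries, ZNF846 without any one TBX3 library, Ctl replicate c, EV replicate b or EV replicate c (-0.51 to -0.70), and ZNF799 without TBX2 replicate a, TBX2 replicate c, Ctl replicate a or Ctl replicate c (-0.27 to -0.42). The remaining ones, ZNF43 and ZNF100 of C4 and ZNF573 of C6, fell with TBX2 (-0.20, -0.25 and -0.31) and are named here to complete the count.

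Among the largest increases of single contrasts, ZNF442 of C3 had 4.31, 3.37 and 3.27 in Ctl, 4.23, 4.08 and 3.51 in EV, 10.7, 8.75 and 10.7 in TBX2, 6.81, 8.45 and 8.296 in TBX3, 6.17, 4.59 and 5.09 in TBX4 and 5.66, 4.96 and 4.47 in TBX5 CPM. TBX2 and TBX3 libraries were above all others. The log2 fold change was 1.40 ± 0.14 (SE, adjusted p = 8.45e-08) with TBX2, the largest of any member there, 1.07 ± 0.14 (SE, adjusted p = 1.72e-05) with TBX3, 0.49 with TBX4 and 0.44 ± 0.17 (SE, adjusted p = 0.123) with TBX5. ZNF547 of C9 had 2 to 21 counts per library, and its values of 1.13 ± 0.40 (SE, adjusted p = 0.0412) with TBX2 and 1.19 ± 0.35 (SE, adjusted p = 0.0313) with TBX4 were not called without TBX2 replicate c (0.83), without TBX4 replicate a (1.16) or without the library labelled 4c-TBX5 (1.01).

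TBX3 differed from each other TBX group more often than TBX4 did from TBX5, among the members and over all tested genes alike. TBX3 was higher than TBX2 for 43 members (18.8%) and lower for 19 (8.30%), where 7.51 and 8.01 percent of all tested genes were. It was higher than TBX4 for 35 (15.3%) and lower for 8 (3.49%), beside 5.95 and 4.02 percent of all genes. It was higher than TBX5 for 28 (12.2%) and lower for 10 (4.37%), beside 4.30 and 3.11 percent. TBX2 and TBX4 differed for 15 members in each direction (6.55% each), beside 6.66 and 5.61 percent of all genes with TBX2 higher and lower. TBX2 and TBX5 differed for 17 in each (7.42%), beside 6.45 and 5.69 percent. TBX4 was higher than TBX5 for 1 member and lower for 0, with 0.109 and 0.430 percent of all genes called. Members of C6 made up 22 of the 43 that were higher with TBX3 than with TBX2, 14 of the 35 higher than with TBX4 and 12 of the 28 higher than with TBX5. Outside C6, TBX2 exceeded TBX3 for 5 of 37 members of C8, with TBX3 higher for 0, and exceeded TBX4 for 6 of 24 members of C3 and TBX5 for 7, with 1 member lower in each.

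The 2 kinds of control were close but not the same. By edgeR, EV was higher than Ctl for 1 member, ZNF283 (0.31 ± 0.07 (SE, adjusted p = 0.0946)), and lower for 0, where 0.282 and 0.103 percent of all genes were called. DESeq2 called 0 members higher and 0 lower at the adjusted threshold. By edgeR at an unadjusted p under 0.05, 33 members were higher and 4 lower with EV. The share of all tested genes at that unadjusted threshold was not counted, so these counts have no background beside them. Whatever their p, 66.4% of members were higher with EV, beside 50.4% of all tested genes. The members' median was 0.09 over all clusters. It was 0.27 in C1 (4 of 5 members higher in EV), 0.22 in C5 (5 of 5), 0.18 in C7 (19 of 22), 0.16 in C6 (25 of 26), 0.13 in C2, 0.12 in C9, 0.03 in C3, -0.01 in C8 and -0.03 in C4 (11 of 32), compared with 0.00 over all genes, 0.01 for ZNF genes of other chromosomes and 0.06 for the non-ZNF genes of chromosome 19. ZNF566 and ZNF260 of C6 had the next smallest p (0.31 and 0.24, adjusted p = 0.163 and 0.19). In the other direction, ZNF564, ZNF486 and ZNF677 had -0.95, -0.27 and -0.22, with adjusted p of 0.446 to 0.498. With EV alone as the control, the members' medians were 0.15 with TBX2, 0.19 with TBX3 and 0.14 with TBX4. Up-regulated were then 68, 68, 41 and 43 members by TBX2, TBX3, TBX4 and TBX5, against 86, 87, 67 and 61 with pooled controls. With Ctl alone the medians were 0.24 with TBX2, 0.28 with TBX3 and 0.25 with TBX5. The members up-regulated against Ctl alone numbered 84, 85, 65 and 50 in the order TBX2, TBX3, TBX4, TBX5.

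Of the members with the highest RPKM of their cluster, ZNF146, ZNF724 and ZNF460 passed the test with no TBX. ZNF146 was at 125 ± 1.42 in Ctl, 139.8 ± 6.65 in EV, 123 ± 7.08 in TBX2, 144 ± 3.46 in TBX3, 128 ± 5.82 in TBX4 and 126 ± 1.13 in TBX5 CPM (SD, n = 3), with log2 fold changes of -0.10, 0.12, -0.05 and -0.07 that did not pass the test (adjusted p = 0.222 to 0.654). ZNF724 of C4 and ZNF460 of C9 had changes of -0.02 to 0.04 and 0.04 to 0.18. ZNF480 of C8 rose with TBX2 by 0.36 ± 0.08 (SE, adjusted p = 0.00213). ZNF57 of C1 rose with TBX2 and TBX4 (0.43 and 0.46), although 75.2% of its exon length overlapped another gene and the calls were lost without TBX2 replicate b or c (0.25 and 0.41) or TBX4 replicate b (0.40). ZNF700 of C3 rose with TBX3 by 0.31 ± 0.10 (SE, adjusted p = 0.0385), a call lost without TBX3 replicate b or c (0.30 and 0.25).

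The partners through which KRAB zinc finger proteins act were read from a list of 19 tested genes. TBX2 up-regulated 2 and down-regulated 8 of them, TBX3 2 and 1, TBX4 1 and 4, and TBX5 1 and 4. As shares, 10.5%, 10.5%, 5.26% and 5.26% were up, where all tested genes had 17.0, 8.47, 6.97 and 6.55 percent, and 42.1%, 5.26%, 21.1% and 21.1% were down, where all genes had 15.6, 6.4, 6.07 and 6.12 percent. TBX2 to TBX5 had medians of -0.10, -0.02, -0.07 and -0.06. TRIM28, the scaffold bound by the KRAB domain, was at 141 ± 5.43 CPM in the controls (SD, n = 6) and 120.002 ± 12.4 with TBX2 (SD, n = 3), a change of -0.24 ± 0.06 (SE, adjusted p = 0.00935). A correction for GC content moved this value to -0.14 and ended the call. SETDB1, the histone methyltransferase, fell with TBX2 (-0.23 ± 0.08 (SE, adjusted p = 0.0311)), a call lost without TBX2 replicate c (-0.16). TASOR, a subunit of the HUSH silencing complex, fell with TBX2 (-0.24 ± 0.06 (SE, adjusted p = 0.00803)), a call lost against EV alone (-0.17).

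Of the heterochromatin proteins, CBX1, CBX3 and CBX5 fell with TBX2 by similar amounts (-0.26, -0.33 and -0.25). CBX5 was at 463 ± 34.8 CPM in the controls (SD, n = 6) and at 391 ± 19.5, 392 ± 19.4, 399.6 ± 21.9 and 397 ± 46.9 in the 4 TBX groups (SD, n = 3). It passed the threshold in all 4 contrasts against pooled controls and in none against EV alone, where the values were -0.13 to -0.16. Single libraries also ended its calls with TBX3 (TBX3 replicate b), TBX4 (TBX4 replicates a and b) and TBX5 (Ctl replicates a and b, TBX5 replicates b and c), with values of -0.17 to -0.21. DNMT1, the maintenance DNA methyltransferase, fell with TBX2 (-0.25 ± 0.06 (SE, adjusted p = 0.0015)) and TBX5 (-0.20 ± 0.05 (SE, adjusted p = 0.0252)), the latter not against EV alone (-0.18). DNMT1 and TRIM28 both lie on chromosome 19, where 33.2% and 14.6% of the tested non-ZNF protein-coding genes fell with TBX2 and TBX5. SUMO2, whose product modifies TRIM28, fell with TBX2 (-0.43 ± 0.07 (SE, adjusted p = 0.000126)). MORC3, an ATPase tied to silencing, rose with TBX2 (0.58 ± 0.09 (SE, adjusted p = 2.81e-05)), TBX3 (0.54 ± 0.08 (SE, adjusted p = 0.000112)) and TBX5 (0.30 ± 0.09 (SE, adjusted p = 0.0317)). CHD3, a remodeller of the NuRD complex, rose with TBX3 (0.31 ± 0.07 (SE, adjusted p = 0.00544)) and TBX2 (0.19 ± 0.06 (SE, adjusted p = 0.0258)). The other calls with TBX4 were falls of CBX1 (-0.23), TASOR (-0.18) and ATF7IP (-0.16) and a rise of PPHLN1 (0.18). With TBX5 they were falls of CBX3 (-0.23) and TRIM28 (-0.17). With single libraries left out, TASOR ran from -0.21 to -0.11, ATF7IP from -0.20 to -0.12 and TRIM28 from -0.26 to -0.13. Whether these changes have a part in those of the members was not tested.

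Of the 18 genes below the filter, ZNF837 came closest, with more than 5 counts in 7 libraries and at most 9. ZNF534 reached 21 counts in a library and exceeded 5 in 5 libraries, and the other 16 exceeded 5 counts in 0 to 3. C4 had the most, with 32 of its 37 ZNF genes passing. The 5 left out there, ZNF676, ZNF98, ZNF99, ZNF723 and ZNF728, had at most 2 counts in any library, under the floor of 3, so no difference was detectable at this depth.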

How the data were processed

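Bulk RNA was sequenced from 18 libraries of NCI-H1299 cells, 3 in each of 6 groups. The authors deposited raw read counts per Ensembl gene, made with STAR 2.3.0 and featureCounts on GRCh37. By its default setting featureCounts ignores strand and leaves out reads that overlap several genes or map to several places, so closely related or overlapping ZNF genes can lose reads.

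Genes that exceeded 5 counts in 10 or more libraries were tested with edgeR 4.0.16 (quasi-likelihood F test, TMM scaling, Benjamini-Hochberg adjustment over 15576 genes, threshold 0.1) in R 4.3.3. Each TBX was fitted against the 6 pooled controls, EV against Ctl, and the 4 TBX groups against each other in 1 fit of all libraries. The SE is the log2 fold change divided by the square root of F. Positions, exon lengths and GC content came from GENCODE on GRCh37, and promoters from RefSeq on GRCh38.p14. Fits were checked on simulated counts. The labels do not say that replicates were separate cultures, so p-values measure the spread between these samples, which may be technical.

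Named genes were the 5 largest changes in each direction per TBX, up to 10 members up in all 4, the highest RPKM per cluster, the 3 smallest p in each direction for EV against Ctl, the 5 smallest p among the 4 TBX groups, and corepressors past the threshold. Other genes named were chosen after their values were seen. The members and lists were chosen with earlier results of these data known. Alternatives used DESeq2 1.42.0, other scalings and filters, a GC correction, a replicate block, each control kind alone and each library left out.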

Additional observations from a re-analysis of the deposited data

Results flagged for a closer look

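Of 47 named genes examined for a control library far from the other 5, 2 were set apart by Dixon's gap ratio at the 95% level, and chance alone sets apart about 1 in 20. MORC3 was highest in Ctl replicate b at 20.7 CPM, with a gap ratio of 0.680. SUMO2 was highest in Ctl replicate c at 128.4 CPM, with a gap ratio of 0.797.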

How the results depend on the processing

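Scaling by library totals moved the most values. The members up-regulated by TBX2, TBX3, TBX4 and TBX5 then numbered 33, 5, 119 and 0, those down-regulated 3, 0, 0 and 0, those differing among the 4 TBX groups 6 and those higher in EV 0. The medians were 0.16 with TBX3, 0.43 with TBX4 and -0.11 with TBX5. Single log2 fold changes that changed sign were ZNF283 in TBX4 (0.0036), ZNF45 in TBX4 (0.0153), ZNF302 in TBX4 (0.0619), CBX1 in TBX4 (0.0353), TASOR in TBX4 (0.0850), ATF7IP in TBX4 (0.11), CBX5 in TBX4 (0.0474), ZNF317 in TBX5 (-0.00839) and MORC3 in TBX5 (-0.0105). The all-gene medians were 0.01, -0.08, 0.25 and -0.31 with TBX2, TBX3, TBX4 and TBX5 under this scaling.

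Against EV alone, 68, 68, 41 and 43 members rose with TBX2, TBX3, TBX4 and TBX5. In that setting 6 fell with TBX4 and 6 with TBX5, and the medians were 0.15, 0.19 and 0.14 with TBX2, TBX3 and TBX4. Against Ctl alone, 6, 1, 0 and 0 fell with TBX2 to TBX5, and the medians were 0.24, 0.28 and 0.25 with TBX2, TBX3 and TBX5. DESeq2 called 1 member down with TBX3 and 1 with TBX5. Among members with under 10% exon overlap, 6 fell with TBX2 and 0 with TBX3, where fewer genes were counted. At an adjusted p under 0.05, 1 fell with TBX5. With no filter the TBX5 median was 0.17. The count higher in EV was 0 with DESeq2, DESeq2 size factors, the replicate block, a minimum of 10 counts throughout, the GC correction with the block, 1 fit of all libraries and an adjusted p of 0.05, and 3 with the GC correction. Other causes were not tested.

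With single libraries left out, 67 to 90, 57 to 92, 43 to 68 and 42 to 62 members rose with TBX2, TBX3, TBX4 and TBX5, and 6 to 11, 2 to 3, 0 to 5 and 0 to 4 fell. The medians ran from 0.17 to 0.21, 0.20 to 0.28, 0.15 to 0.18 and 0.19 to 0.23. Members differing among the TBX groups numbered 57 to 73, and 0 to 2 were higher and 0 lower in EV. Of 93 calls on named genes, 32 were lost without at least 1 library and 0 changed sign.

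Libraries with the same letter did not deviate together (mean r 0.00043, against -0.000185 for different letters). With the replicate block 83, 87, 62 and 62 members rose.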

Other observations

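Outside the ZNF symbols, 14 other zinc finger genes of chromosome 19 were tested. ZIK1 was up-regulated in all 4 contrasts, with log2 fold changes of 0.56, 0.39, 0.48 and 0.43 for TBX2, TBX3, TBX4 and TBX5 by edgeR. PEG3, an imprinted zinc finger gene, rose by 0.25 with TBX2 and by 0.25 with TBX4, and ZBTB7A fell with TBX4, at -0.30. Between the members of C7 lay 18 tested genes that are no ZNF, of which 9, 3, 8 and 5 were down-regulated by TBX2, TBX3, TBX4 and TBX5, where 15.6, 6.4, 6.07 and 6.12 percent of all tested genes were, and 3, 1, 0 and 0 were up-regulated, where 17.0, 8.47, 6.97 and 6.55 percent were.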
